A study of Mus musculus with 18 samples.

Results

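The 10 genes described here encode chemokines, small secreted proteins that attract leukocytes: Ccl2, Ccl3, Ccl4, Ccl5, Ccl7, Ccl9, Ccl12, Cxcl2, Cxcl10 and Cxcl16. They were taken by gene symbol from a table of long-read counts, where they were 10 of 17714 gene labels and held 82 of 114425 isoforms. The table covers 6 groups of 3 libraries: astrocyte, microglia and neuron cells from primary mouse brain cultures, and the small extracellular vesicles (sEVs) released by each. The labels name no strain, age, treatment or genotype for any group. The study asks whether mRNA is packaged into sEVs selectively. Per the labels' protocols, cells and sEVs were extracted with different kits and sequenced in different pools, so a difference between fractions cannot be told apart from one of kit or pool.

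Chemokines act through G protein-coupled receptors on the cells they attract. The CC ligands draw mainly monocytes, macrophages and T cells, whereas CXC ligands include neutrophil attractants such as Cxcl2 and interferon-induced T cell attractants such as Cxcl10. In the brain, activated microglia are a well-known source of them, and many of these genes are transcribed within hours of an endotoxin or cytokine signal through NF-kB. Their mRNAs are short, and several are short-lived because of AU-rich elements. Of the 10 genes, 8 lie on mouse chromosome 11 and Cxcl2 and Cxcl10 on chromosome 5. In RefSeq's gene order Ccl7 is the next protein-coding gene after Ccl2, and Ccl4 the next after Ccl3.

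Library totals ran from 434298 to 683381 reads. Microglia markers (18 genes) summed in microglia cells to 27177 to 33002 RPM, reads for each 1000000 of the unscaled library total, although Cx3cr1, a marker of resting microglia, had 0 reads there. The ferritin gene Ftl1 was the most abundant gene in all 9 sEV libraries, with 4.47 to 6.94% of reads in microglia sEVs and 14.9 to 31.5% in the other sEVs. The smallest value above 0 in the table is 2, so a 0 can hide single reads of an isoform. As PCR reads without molecular identifiers are not independent molecules, the floors used below cover counting error alone. Nothing in the labels tells whether the 3 libraries of a group came from separate cultures, and each p-value reflects the spread among these libraries, which may be technical.

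Promoter windows were at hand for 5 of the 10 genes, from RefSeq's sequence of GRCm38.p6, whereas the submitters' processing notes name GRCm39. The 250 bases before the start of 3 of them are shown because they differ in the letters that NF-kB and interferon-responsive factors are known to bind. Capitals mark matches to the NF-kB consensus, searched on both strands, to GAAA followed after any 2 bases by another GAAA, the core of interferon-stimulated response elements, searched on both strands, and to TATAAA on the gene's own strand.
Cxcl2, chr5:90903649-90903898, plus strand: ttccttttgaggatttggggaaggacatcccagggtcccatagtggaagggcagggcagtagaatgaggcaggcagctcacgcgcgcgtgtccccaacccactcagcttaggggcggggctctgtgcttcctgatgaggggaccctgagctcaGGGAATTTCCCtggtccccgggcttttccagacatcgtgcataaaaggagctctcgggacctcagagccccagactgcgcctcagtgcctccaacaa
Cxcl10, chr5:92348890-92349139, minus strand: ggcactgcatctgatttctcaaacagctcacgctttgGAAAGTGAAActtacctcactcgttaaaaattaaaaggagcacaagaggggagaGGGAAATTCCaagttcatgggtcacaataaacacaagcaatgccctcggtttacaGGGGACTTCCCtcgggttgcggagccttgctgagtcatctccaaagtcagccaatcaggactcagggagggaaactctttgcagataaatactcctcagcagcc
Ccl3, chr11:83649379-83649628, minus strand: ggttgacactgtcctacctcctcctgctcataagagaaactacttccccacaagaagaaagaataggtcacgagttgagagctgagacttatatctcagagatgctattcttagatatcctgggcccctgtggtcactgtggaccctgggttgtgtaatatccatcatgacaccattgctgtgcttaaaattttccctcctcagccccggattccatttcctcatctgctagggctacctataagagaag
In Cxcl2 the NF-kB letters begin 97 bases before the start, with a second, overlapping match on the other strand. In Cxcl10 they begin 159 and 104 bases before the start, and the match at 104 overlaps another at 103. Cxcl10 also holds GAAAGTGAAA, which begins 213 bases before the start. The window of Ccl9 holds 1 NF-kB match and that of Ccl12 none, and both hold TATAAA. Over all 32851 windows of this length, 7.25% hold the NF-kB letters, 2.98% the paired GAAA and 7.59% TATAAA. A match is only a run of letters, and the lack of one in Ccl3 and Ccl12 says nothing about sites elsewhere.

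In cells, chemokine reads were found almost only in the microglia libraries. The 10 genes together took 3.35, 3.57 and 3.43% of all reads in the microglia cell libraries. The 3 astrocyte cell libraries held 0 reads of them, and the 3 neuron cell libraries held 2, both of Cxcl16. Levels below are in CPM, counts for each 1000000 reads of a library size scaled by TMM, with SDs over n = 3 libraries. They are not divided by transcript length, so genes are not ranked against each other.

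The monocyte attractants Ccl2, Ccl7 and Ccl12, ligands of the receptor Ccr2, had 1531, 2472 and 2972, 959, 1592 and 2218, and 266, 455 and 560 reads in the microglia cell libraries. Ccl3 and Ccl4, the macrophage inflammatory proteins, had 2968, 3727 and 4377 reads and 4367, 4764 and 5995. Ccl5, which attracts T cells, had 1382, 1941 and 2203. Every one of these values lies above every value in the astrocyte and neuron cells, where these 6 genes had 0 reads. Ccl9, a ligand of Ccr1, had 898, 1107 and 1578 reads in microglia cells, and Cxcl2, a ligand of Cxcr2, had 363, 439 and 465. Cxcl10, a ligand of Cxcr3, had 1420, 1547 and 2251, and Cxcl16, made as a membrane-bound ligand of Cxcr6, had 380, 576 and 797.

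All 10 genes passed the test of microglia cells against the mean of astrocyte and neuron cells, and all 10 were higher (edgeR's quasi-likelihood test, Benjamini-Hochberg adjustment over 8184 genes). Among all genes tested, 18% were higher and 24.4% lower in that comparison. With the other cells set at a floor of 3 reads per library, the difference ran from at least 254-fold for Ccl12 to at least 3055-fold for Ccl4, and for Cxcl16, with 2 reads elsewhere, no fold is given. In sEVs, all 10 genes were again higher in microglia than in the mean of astrocytes and neurons, where 20.3% of all genes were higher and 29.7% lower. Cxcl2 was at least 78.8-fold higher, with 0 reads in the other sEVs, and 7 genes had ratios from 421-fold for Ccl2 to 2261-fold for Cxcl10. Ccl9 and Cxcl16 had 3 and 2 reads in the other sEVs. Both counts stayed at 10 under each alternative run and when each of the 18 libraries was left out in turn. The members were chosen with earlier results of these data known, and they passed the filter through their microglia reads. Both counts were therefore fixed beforehand, and the further runs add no independent support.

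**Figure D1:**
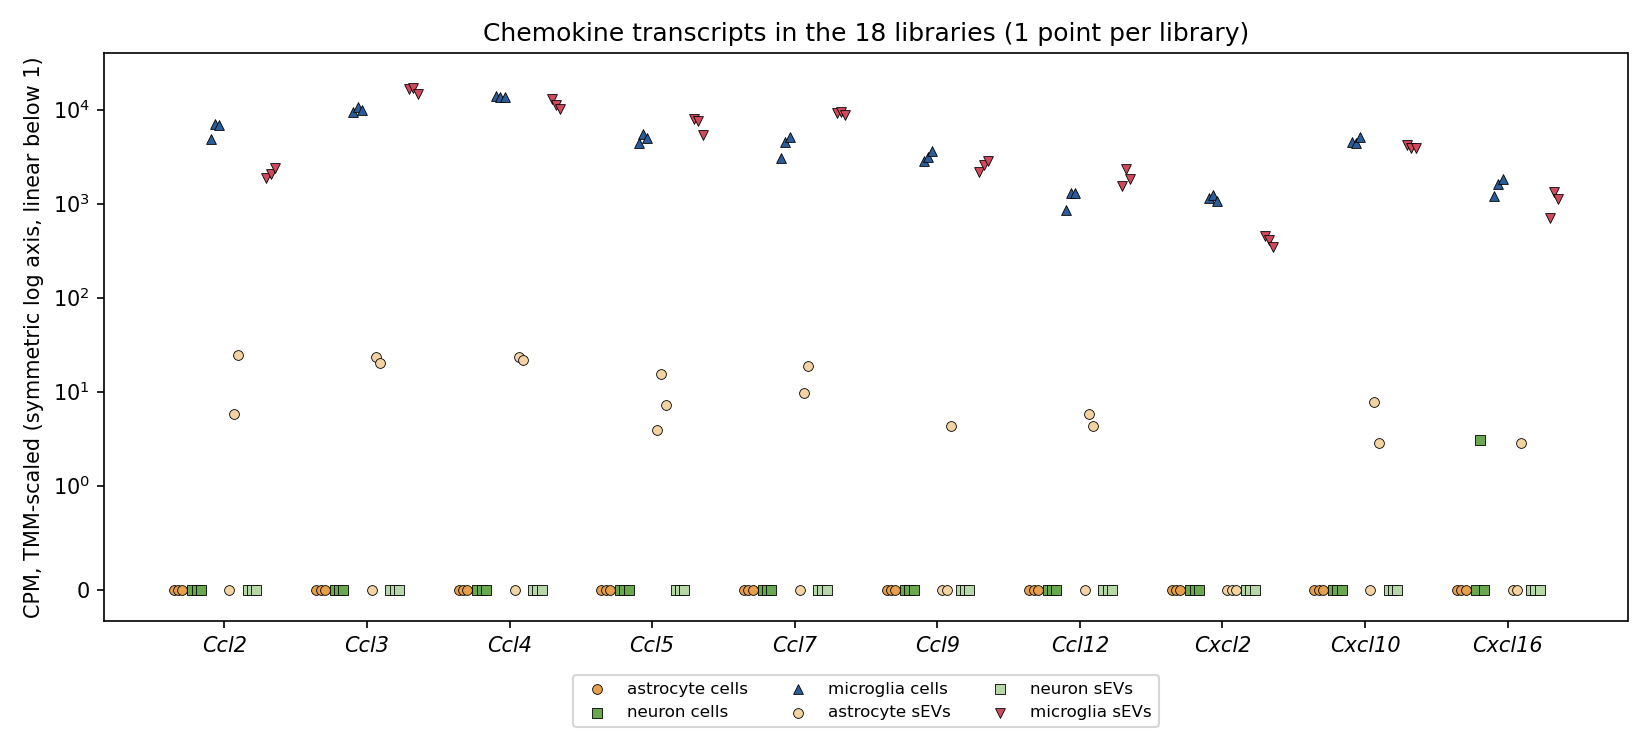
Levels of the 10 genes in each of the 18 libraries, in TMM-scaled CPM on a symmetric log axis that is linear below 1; each point is 1 library, coloured by group. The microglia points of every gene lie above 300 CPM, astrocyte sEV points lie at 0 or below 30 CPM, and the remaining points lie at 0 except for 1 neuron cell library with 2 reads of Cxcl16.

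Within microglia, the level of each of these messages in sEVs was compared with its level in cells. The 10 genes together took 6.62, 5.66 and 4.81% of reads in the microglia sEV libraries, all above the share in cells. These are shares of unscaled totals. The gap is smaller with TMM, which multiplied the cell totals by a mean factor of 0.679 and the sEV totals by 1.02. With TMM scaling only Cxcl2 passed the test. It stood at 1159, 1243 and 1064 CPM in cells and at 453, 412 and 342 in sEVs, so the groups do not overlap, and it was 2.87-fold lower in sEVs (1156 ± 89.5 against 402 ± 56.2 CPM; adjusted p = 0.00605). The share of all 8184 genes that was lower in this comparison was 9.18%, and 2.7% were higher. The members' median log2 difference was -0.24 with TMM, beside 0 for all genes. With unscaled totals it was 0.36, beside 0.14 for all genes, so its sign depends on the scaling.

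Ccl2 and Ccl7, neighbouring genes for attractants of the same monocytes, lay at opposite ends of the set. Ccl7 had 3062, 4509 and 5077 CPM in cells and 9096, 9484 and 8717 in sEVs, a log2 difference of 1.11 with an SE of 0.54 that did not pass the test (adjusted p = 0.241). Ccl2 had 4888, 7001 and 6803 CPM in cells and 1874, 2061 and 2415 in sEVs, a log2 difference of -1.56 with an SE of 0.59 (adjusted p = 0.121). For both genes the 3 sEV libraries lie apart from the 3 cell libraries. With DESeq2, and in edgeR without a filter on low counts or with the microglia libraries alone, both passed in those directions.

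Ccl12 had 849, 1289 and 1282 CPM in cells against 1540, 2339 and 1820 in sEVs (log2 0.74, SE 0.39, adjusted p = 0.282). Ccl3 had 9476, 10556 and 10019 CPM against 16428, 16975 and 14769 (log2 0.68, SE 0.58, adjusted p = 0.546). Both genes lie higher in every sEV library, and both passed when the microglia libraries were fitted alone (adjusted p = 0.0140 for Ccl12 and 0.00721 for Ccl3). Ccl5 (4984 ± 545 CPM in cells and 7027 ± 1412 in sEVs) and Cxcl16 (1556 ± 312 and 1052 ± 311) overlapped between the groups.

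Ccl4 (13719 ± 225 CPM in cells and 11493 ± 1456 in sEVs), Ccl9 (3205 ± 377 and 2521 ± 349) and Cxcl10 (4689 ± 408 and 4004 ± 157) did not overlap and did not pass, with adjusted p-values of 0.950, 0.698 and 0.875. In all, 3 of the 10 genes lay higher and 5 lower without overlap, where 9.26% and 18.5% of all tested genes did. That background includes genes with few microglia reads, which can hardly separate, so it is no like-for-like measure for the members. Of the genes, 3983 passed the filter on the microglia libraries alone, and in that fit 415 were called higher and 606 lower.

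The sign of 4 of these genes depends on the scaling. TMM multiplied the microglia cell totals by a mean factor of 0.679 and the microglia sEV totals by 1.02. With unscaled totals the log2 differences of Ccl4, Ccl9, Cxcl10 and Cxcl16 were 0.35, 0.23, 0.37 and 0.01 in place of -0.26, -0.35, -0.23 and -0.57. With unscaled totals Ccl12 passed as higher (log2 1.32, adjusted p = 0.0316) and Cxcl2 no longer passed (log2 -0.92, adjusted p = 0.0707). Over all genes, TMM gave 221 higher and 751 lower calls and unscaled totals 666 and 519, and the median log2 difference moved from 0 to 0.14. With the microglia libraries fitted alone the log2 differences were 0.022 for Ccl4 and 0.045 for Cxcl10, neither of them called. Ccl2, Ccl3, Ccl5, Ccl7, Ccl12 and Cxcl2 kept their sign under each alternative run.

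**Figure D2:**
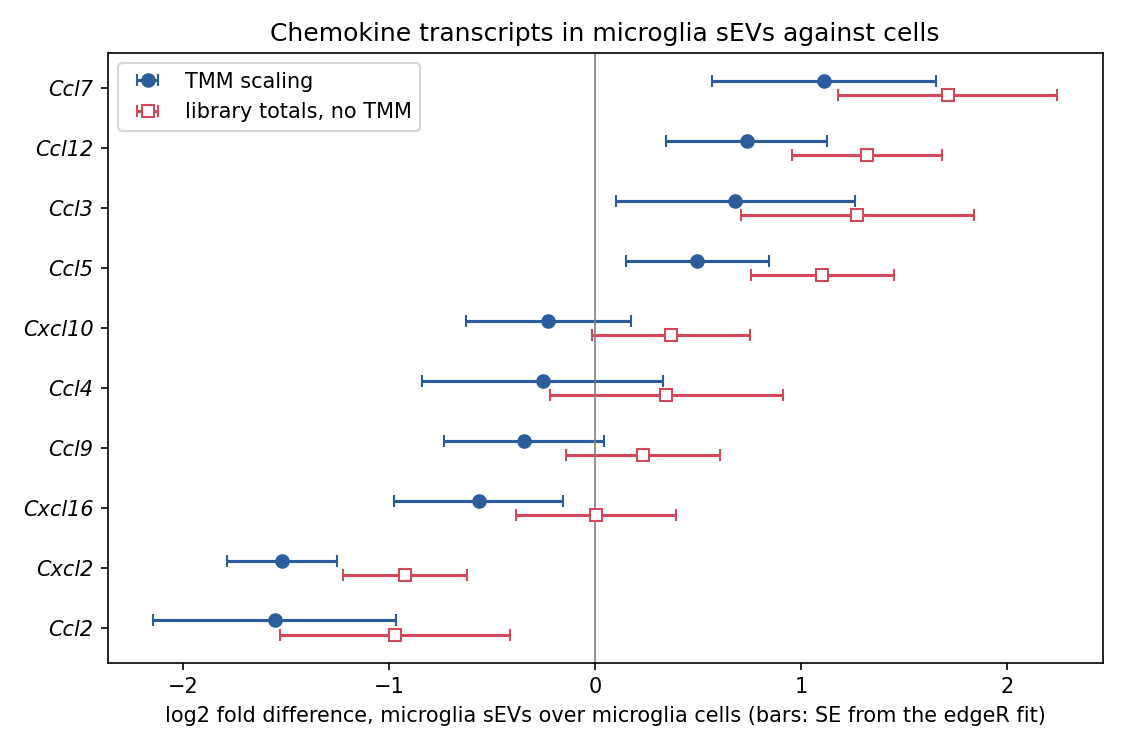
Log2 fold difference of each chemokine gene between microglia sEVs and microglia cells (n = 3 libraries each), with TMM scaling (circles) and with unscaled library totals (squares); bars are standard errors from the edgeR fit. Ccl7 lies highest with 1.11 and 1.71, Ccl2 and Cxcl2 lie below 0 under both scalings, and Ccl4, Ccl9, Cxcl10 and Cxcl16 lie on different sides of 0.

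Shares among the 10 genes do not depend on the scaling. Ccl7 made up 8.21 ± 1.47% of the chemokine reads in microglia cells and 16.4 ± 0.54% in sEVs, and Ccl3 made up 19.7 ± 0.90% and 28.8 ± 0.41%. Ccl2 made up 12.2 ± 1.44% in cells and 3.83 ± 0.75% in sEVs, and Cxcl2 2.28 ± 0.26% and 0.720 ± 0.063%. The libraries of the groups do not overlap for any of these 4 shares. For each read of Ccl2 there were 0.626, 0.644 and 0.746 reads of Ccl7 in the cell libraries and 4.85, 4.60 and 3.61 in the sEV libraries. Ccl4 had the larger count of the Ccl3 and Ccl4 pair in every cell library, with 0.731 ± 0.051 reads of Ccl3 for each of its own, and the smaller count in every sEV library, with 1.41 ± 0.13. These ratios were chosen after their values were seen and are a description with no test.

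**Figure D3:**
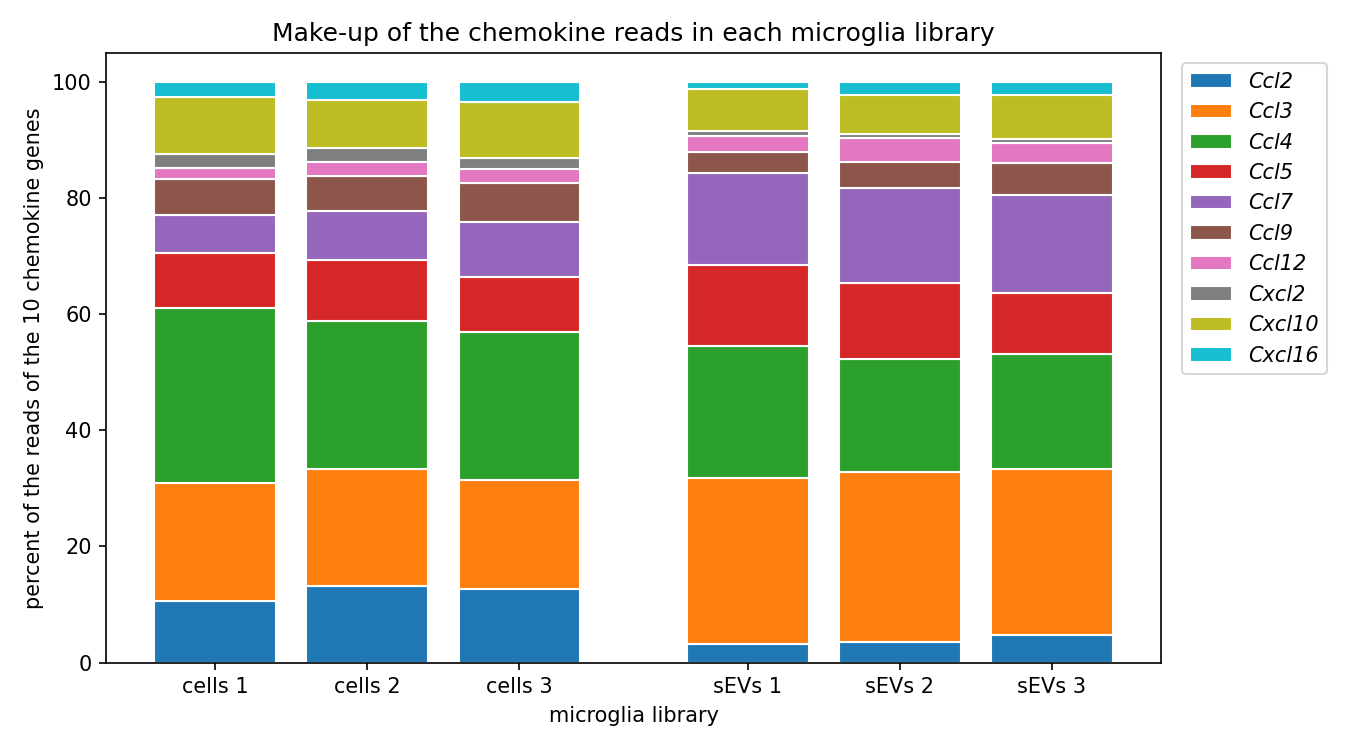
Make-up of the reads of the 10 chemokine genes in each microglia library, as percent of their sum; bars 1 to 3 are cells and bars 4 to 6 are sEVs. The Ccl7 and Ccl3 segments are wider in each sEV library, and the Ccl2 and Cxcl2 segments are narrower.

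As a list, the microglia markers lay lower in sEVs. The 18 markers summed to 9065 to 14931 RPM in microglia sEVs, below the 27177 to 33002 RPM in cells. With TMM 10 of the 15 tested markers were lower and 1 higher in sEVs, beside 9.18% and 2.7% of all genes. With unscaled totals 7 were lower and 1 higher, beside 519 and 666 of all 8184 genes. The marker C1qb varied between single libraries, with 33, 1555 and 1971 reads in cells and 933, 13 and 945 in sEVs. For each marker read there were 1.08 to 1.23 chemokine reads in the cell libraries and 4.43 to 6.24 in the sEV libraries. Among markers of other cell types in the microglia libraries, 12 astrocyte markers summed to 72.8 to 288 RPM in cells and 90.5 to 154 in sEVs, 12 neuron markers to 0 to 8.78 and 0 to 64.4, and those of other blood cells to 0 in both. Fibroblast and vascular markers summed to 0, 61.3 and 139 RPM in the cell libraries and to 0, 0 and 3.07 in sEVs, and the 1 tested, Dcn, was lower in sEVs (97 reads in cells and 2 in sEVs, edgeR adjusted p = 0.0409). Their part in the results was not tested. Fewer microglia vesicles and less RNA in each cannot be told apart in such bulk samples.

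Isoform shares were compared within each gene, so they do not depend on the scaling of the libraries. Reads that keep an intron made up 2.43% of the chemokine reads in microglia cells (1376 of 56570) and 0.183% in sEVs (170 of 92955), or 0.0567, 0.0771 and 0.411% in the 3 sEV libraries. Without sEV replicate 3, which held 118 such reads of Ccl9, the share in sEVs was 0.0666% (41 of 61576). Over all gene labels the share was 1.55% in cells and 0.722% in sEVs. Of the 10 genes, 5 had enough intron-retaining reads for a test of usage, and 3 of these, Ccl4, Ccl12 and Ccl7, had a lower share in sEVs. The background of that test, over 318 genes, was 21.4% lower and 1.57% higher.

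In Ccl4, 275, 302 and 335 reads kept an intron in the cell libraries, 6.07 ± 0.42% of the gene's reads, and 0 of 19192 reads did so in sEVs (adjusted p = 2.76e-05, edgeR's diffSpliceDGE). In Ccl12 these were 20, 26 and 35 reads, or 6.49 ± 0.93%, against 0 of 3162 (adjusted p = 0.000614). In Ccl7 they were 34, 62 and 74 reads, or 3.59 ± 0.28%, against 0 of 15208 (adjusted p = 0.00143). For these 3 genes every cell library held intron-retaining reads and none was listed in any microglia sEV library, although each gene had more reads in all in sEVs than in cells.

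Ccl3 had an intron-retaining share of 1.07 ± 0.31% in cells, or 32, 28 and 60 reads, and of 0.0522 ± 0.0278% in sEVs, or 7, 5 and 2. The groups do not overlap, and the test missed the threshold (adjusted p = 0.0550; 0.0441 with unscaled totals). Cxcl16 had 1.94 ± 1.23% in cells and 1.32 ± 1.33% in sEVs, which overlap (adjusted p = 1). Cxcl10 had 8, 6 and 12 such reads in cells and 0 in sEVs, Cxcl2 3, 0 and 6 against 0, and Ccl5 2, 4 and 2 against 11, 0 and 0, with no test. Ccl2 had no intron-retaining isoform in the table.

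Ccl9 went the other way in 1 library. It had 0, 7 and 5 intron-retaining reads in cells and 118 in microglia sEV replicate 3, but 0 in the sEV replicates 1 and 2. Those 118 reads were 6.86% of the gene's reads in that library. The same library held 74 reads of a 3′ fragment of Ccl9 (0 in the other sEV libraries), 52 reads of a partial intron retention of Ccl3 (4 and 0) and 86 reads of a 3′ fragment of Cxcl10 (0 and 0). The members other than Ccl9 had 18, 23 and 11 intron-retaining reads in the sEV libraries, with the fewest in replicate 3.

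A second isoform difference concerned the 3′ end. Most Ccl5 reads belong to an isoform with all annotated junctions and an alternative 5′ end, and a second isoform with all junctions ends at another 3′ position. That second isoform held 388, 487 and 582 reads in microglia cells, or 28.1, 25.1 and 26.4% of Ccl5. In microglia sEVs it held 0, 11 and 5 reads, or 0, 0.279 and 0.152%. It was 138-fold lower in sEVs (1336 ± 82.2 against 9.53 ± 10.4 CPM; adjusted p = 0.00812, edgeR), whereas the main Ccl5 isoform had 3701 ± 500 and 6832 ± 1394 CPM (adjusted p = 0.554). Ccl2 had a smaller such isoform, with 18, 18 and 37 reads in cells and 0 in sEVs (adjusted p = 0.0318), a drop of at least 12.4-fold.
Over all gene labels, isoforms of this class made up 33.1 ± 0.20% of reads in microglia cells and 27.8 ± 2.33% in sEVs.

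Of the members' isoforms tested, 7 were lower in microglia sEVs and 0 higher, with 8% lower and 1.36% higher among all 9370 isoforms. They are both intron-retaining isoforms of Ccl4, 1 each of Ccl7 and Ccl12, the 3′ end isoforms of Ccl5 and Ccl2, and the reference isoform of Cxcl2. The leading intron-retaining isoform of Ccl4 was at least 150-fold lower (adjusted p = 0.00150), and those of Ccl7 and Ccl12 were at least 21.9-fold and 11.1-fold lower (adjusted p = 0.0196 and 0.0327). The count fell to between 2 and 3 when any 1 of the 6 microglia libraries was left out. The leading isoforms of Ccl3, Ccl4, Ccl7, Ccl9, Ccl12, Ccl2, Ccl5, Cxcl10 and Cxcl16 did not pass, so among leading isoforms only that of Cxcl2 was called.

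**Figure D4:**
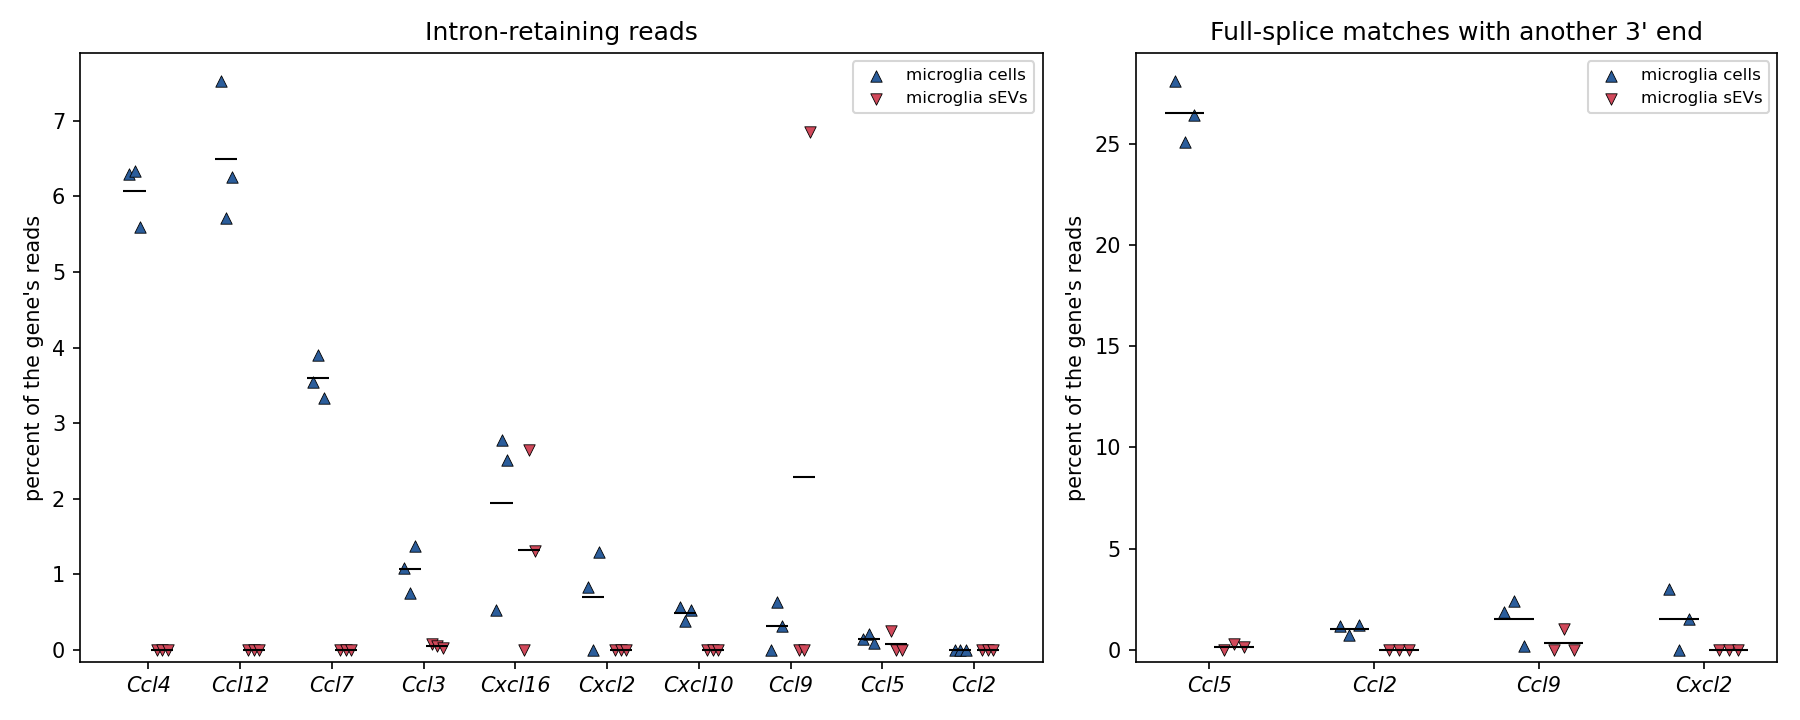
Percent of each gene's reads that retain an intron (left) and that match all annotated junctions but end at another 3′ position (right), in microglia cells and microglia sEVs; each point is 1 library and the line is the mean of 3. For Ccl4, Ccl12 and Ccl7 the cell libraries lie between 3.34 and 7.52% and the sEV libraries at 0, for Ccl9 1 sEV library lies at 6.86%, and for Ccl5 the 3′ end isoform lies above 25% in cells and below 0.3% in sEVs.

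Other isoforms varied between single libraries. An isoform of Cxcl10 with an alternative 5′ splice site had 581 reads in microglia sEV replicate 1 but 3 and 8 in the other sEV libraries and 3, 0 and 0 in cells. Cxcl10 mono-exon reads numbered 81, 2 and 104 in cells and 0, 2 and 0 in sEVs. A second reference-matching isoform of Ccl12 had 4, 3 and 11 reads in cells and 47, 65 and 52 in sEVs, which did not pass (adjusted p = 0.106). Antisense reads over Ccl3 numbered 4 in cells and 18 in sEVs, and a read-through of Heatr9 into Ccl5 held 5 reads in cells.

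In astrocyte sEVs, some chemokine reads were listed although astrocyte cells held 0. The 3 astrocyte sEV libraries held 3, 47 and 74 reads of the 10 genes, out of 487966 to 615216 reads each. By the test on all 18 libraries 6 genes were higher than in astrocyte cells, where 8.04% of all genes were higher and 12.2% lower: Ccl2 (0, 3 and 17 reads), Ccl3 (0, 12 and 14), Ccl4 (0, 12 and 15), Ccl5 (3, 8 and 5), Ccl7 (0, 5 and 13) and Cxcl10 (0, 4 and 2). Against the floor of 3 reads per library the difference was at least 2.09-fold for Ccl5 and at least 3.53-fold for Ccl4. For Cxcl10 no fold is given, as its mean of 3.54 CPM in astrocyte sEVs lay below that floor in astrocyte cells. The edgeR adjusted p-values ran from 0.00236 for Ccl5 to 0.0492 for Cxcl10. Of these 6 genes only Ccl5 had reads in each of the astrocyte sEV libraries. The members passed the filter on low counts only through their microglia reads, so the share of all genes is no like-for-like measure for them.

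These calls rest on few reads and on the spread shared with other groups. With only the 6 astrocyte libraries in the fit none of the 10 genes had enough reads for the filter on low counts, so they were not tested there. Without astrocyte sEV replicate 3, or without any 1 of the astrocyte cell replicates, 3 passed in the fit on the remaining libraries. Microglia markers had 8, 52 and 39 reads in all in these libraries, up to 107 RPM, and 9 of 18 had reads. Both sums were lowest in replicate 1, and from replicate 2 to replicate 3 the chemokine count was the higher one in replicate 3 and the marker count in replicate 2. Among the defining markers, C1qb, C1qc and Trem2 had reads, and Csf1r, C1qa, Tyrobp and Cx3cr1 had 0. In astrocyte sEV replicates 2 and 3 the chemokines stood at 0.169 and 0.219% of their mean RPM in microglia sEVs, and the markers at 0.917 and 0.565%. Astrocyte cells held marker sums of 127 to 197 RPM and 0 chemokine reads. Neuron sEVs held 7, 2 and 2 marker reads and 0 chemokine reads. Whether microglia material or other libraries of the sequencing pool gave the astrocyte sEV reads was not tested.

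In neurons, 0 of the 10 genes passed the test of sEVs against cells (edgeR; 0 at an unadjusted p under 0.05 and 0 by DESeq2), where 13.6% of all genes were higher and 17.8% lower. As 9 of the 10 genes had 0 reads in all 6 neuron libraries, this test says nothing about their packaging. The difference between sEVs and cells in microglia was also set against the mean of that in astrocytes and neurons, and again 0 of the 10 genes passed (edgeR; 0 at an unadjusted p under 0.05, and 1, lower, by DESeq2), beside 1.5% higher and 2.46% lower among all genes. With 0 reads in nearly all of the other cell libraries, that comparison could not be estimated for these genes.

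Other genes of the chemokine system were taken from lists of symbols. Of 26 other chemokine ligands 9 could be tested, of which 6 were higher and 2 lower in microglia cells than in the other cells (18% and 24.4% of all genes). In microglia sEVs against cells 0 of the 9 were higher and 1 lower, near the share of all genes (2.7% higher, 9.18% lower). That 1, Cx3cl1, the membrane-bound ligand that neurons make, had 15, 21 and 9 reads in microglia cells and 0 in sEVs (adjusted p = 0.00630), and it was named after its values were seen. Ccl6, which lies between Ccl9 and Ccl3, had 751 ± 101 CPM in microglia cells and 1198 ± 263 in sEVs and did not pass (adjusted p = 0.310).

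Of 24 chemokine receptors only 2 could be tested. Both were higher in microglia cells than in other cells, where 18% of all genes were. In microglia sEVs 1 of the 2 was lower, beside 9.18% of all genes. It was Ccrl2, an atypical receptor that binds chemerin, with 1677 ± 33.1 CPM in cells and 372 ± 75.7 in sEVs, 4.50-fold lower (adjusted p = 0.00122, edgeR).

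Of 28 genes of endotoxin and NF-kB signalling 21 were tested, and 20 of these were higher in microglia cells than in the other cells, where 18% of all genes were. In microglia sEVs 2 of the 21 were lower and 0 higher, a share lower that is near the 9.18% of all genes. Tlr2, the receptor of bacterial lipoproteins, had 1100 ± 198 CPM in cells and 112 ± 22.8 in sEVs (9.79-fold lower, adjusted p = 0.00135). Cd14, the co-receptor of endotoxin, had 11926 ± 1592 CPM and 2585 ± 335 (4.61-fold lower, adjusted p = 0.0174), and with unscaled totals its adjusted p was 0.0548.

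Among 15 proteins that bind AU-rich elements or degrade mRNA, 11 were tested, with 1 lower and 1 higher in microglia sEVs, beside 9.18% lower and 2.7% higher among all genes. Zfp36, which marks AU-rich mRNAs of cytokines for decay, had 1409 ± 419 CPM in cells and 315 ± 157 in sEVs (4.47-fold lower, adjusted p = 0.00445). The higher gene was Hnrnpd, an AU-rich element binding protein (edgeR adjusted p = 0.0212), named after its value was seen. It fell short of the mean of 20 reads in the higher group that was asked of named genes, so this call rests on few reads. The sign of Ccrl2, Tlr2, Cd14 and Zfp36 was the same with unscaled totals.

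The 5 genes whose log2 CPM followed the members' mean most closely over the 18 libraries were Fcer1g, an Fc receptor subunit (Pearson's r = 0.999), the interleukin gene Il12b (0.998), Ccl6 (0.997) and the interferon-induced genes Phf11d and Ifi205 (0.997 each). The 18 points share depth and fall into microglia and other libraries, so these values are a description. Outside microglia the 5 genes had 4 to 18 reads in all.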

How the data were processed

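The authors deposited raw counts of PacBio long reads per isoform, with a gene label and a structural class. The submitters' processing notes name minimap2 and the build GRCm39. Which isoform caller and annotation were used is not given in the sources used here. Counts were summed per gene label. edgeR 4.0.16 in R 4.3.3 (filterByExpr, TMM, quasi-likelihood F tests, Benjamini-Hochberg, threshold 0.05) was fitted once on all 18 libraries, with 1 mean per group, to 8184 genes and 9370 isoforms. Intron-retention usage was tested with diffSpliceDGE on 2 sums per gene, in 318 genes. Intron-retaining means that the deposited subcategory names intron retention. DESeq2 1.42.0 was an alternative. On simulated data the gene test recovered 73% of changes of 2 and 100% of changes of 3 on the log2 scale in microglia sEVs against cells, over 7183 genes. The simulated dispersion was set below the common dispersion of 0.31 fitted to the real counts, and only well-covered genes were changed. These rates may therefore overstate recovery in the real data.

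Replicate numbers of the labels gave no clear pairing of the libraries. Same-number deviations correlated between -0.081 and 0.080 over 9 pairs, and 6 of these correlated best with their own number. Such weak correlations cannot show whether the libraries were paired, and the main fit treated them as unpaired. The members and lists were chosen with earlier results of these data known. Named were all members, their leading and leading intron-retaining isoforms, at most 5 called genes of each list with a mean of 20 or more reads in the higher group and the largest changes in microglia sEVs against cells, and the 5 most alike genes (prior count 2).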

Additional observations from a re-analysis of the deposited data

How the results depend on the processing

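Members called in microglia sEVs against cells numbered 1 with all libraries, 3 with DESeq2, 3 with no filter on low counts, 5 with only the groups of the comparison, and 1 to 3 when each library was left out (3 without astrocyte sEV replicate 1, 2 without astrocyte sEV replicate 3). In astrocytes the 6 calls became 3 to 7 with a library left out. They became 0 with only the groups of the comparison, where the filter on low counts removed the members before any test. DESeq2 called 1 member for the difference between cell types. The 7 isoforms called became 4 with a filter on a mean of 10 reads, 2 with the replicate block, and 2 to 3 with a library left out. The replicate block left 1 member called in microglia and 5 in astrocytes, and of the 9 same-number pairs 6 correlated best with their own number. The 3 genes with lower intron-retention usage numbered 3 in all 6 fits without a microglia library and with partial intron retention added, an alternative chosen after seeing the data. The causes were not tested. Counting mono-exonic isoforms made by intron retention was not run, as the table holds 0 of them. Over single genes and isoforms, 1652 results under an alternative kept their direction and side of the threshold, 71 were weaker, 21 stronger and 16 changed sign, none of which was called in either fit. With library totals unscaled, the log2 difference of microglia sEVs from cells turned to 0.35 for Ccl4, 0.23 for Ccl9, 0.37 for Cxcl10 and 0.0055 for Cxcl16, and to 0.32 and 0.62 for 2 isoforms of Cxcl16, 0.21 for 1 of Ccl9, 0.43 for 1 of Ccl4 and 0.29 for 1 of Cxcl10. With only the groups of the comparison it turned to 0.022 for Ccl4 and 0.045 for Cxcl10. The Cxcl16 difference between cell types turned to 0.035 with unscaled totals, and lay between -1.82 and 0.69 with a library left out. As that comparison could not be estimated for the members, these values say nothing about its direction. A full-length Cxcl16 isoform turned to 0.0079 with the replicate block and lay between -0.22 and 0.29 with a library left out, and a 3' fragment of Cxcl10 between -9.08 and 1.21. Depth limits the astrocyte and neuron values, where most counts are 0 or under 20.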
